A study of Mus musculus with 12 samples.

Results

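Cytosolic ribosomal proteins build the ribosome, the machine that translates mRNA into protein. The 53 genes described here encode 31 proteins of its large subunit (names starting with Rpl) and 22 of its small subunit (names starting with Rps). They were found by their Ensembl IDs as the protein-coding parent genes, without pseudogenes, and all 53 were among the 57010 gene IDs of the count tables. A further 26 cytosolic ribosomal protein genes were set beside them as a comparison list. The 53 lie on 18 chromosomes.

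Each protein is present in a single copy per ribosome in the usual model, and cells match the supply of the proteins to each other and to ribosomal RNA made by RNA polymerase I. Many of these mRNAs begin with a C followed by a run of pyrimidines, the 5′ terminal oligopyrimidine (TOP) motif, through which the kinase mTOR and the RNA-binding protein Larp1 set their translation and stability. In cartilage, chondrocytes depend on this supply to secrete matrix. Loss of single ribosomal proteins, such as Rpl38 in the Tail short mouse, disturbs skeletal patterning.

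The mRNA came from primary mouse chondrocytes, all labelled wild type in genotype. There were 4 libraries labelled Control, and nothing in the labels says what those cells were given. The 4 libraries labelled WT came from cells that received a plasmid called wild type. The 4 labelled SIRT5F101L came from cells that received a plasmid with the F101L substitution in SIRT5, a mitochondrial enzyme that removes succinyl, malonyl and glutaryl groups from lysines. The age and strain of the mice, the number of animals, the vector and its promoter, and the time after transfection are not given in the sources used here. Nothing says that the libraries of a group came from separate cultures or animals, so the p-values measure only the spread between these libraries, which may be technical.

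Libraries held 15095357 to 24242139 counts, and 18692 to 19809 gene IDs had a count. Mouse Sirt5 had 9 to 16 counts per Control library, 1 to 9 per WT library and 9 to 19 per SIRT5F101L library, so its counts do not check the plasmid labels. All 12 chondrocyte markers had counts, among them Col2a1 and Acan, with a summed level of 9221 to 11580 CPM (each count as its share of the library, rescaled with TMM factors) in Control, 2849 to 2964 in WT and 2320 to 2564 in SIRT5F101L. The 6 fibroblast markers summed to 29620 to 35530, 9650 to 11060 and 9303 to 10690 CPM. Against Control, edgeR called 10 of the 12 chondrocyte markers lower and 2 higher in WT, and 10 lower and 1 higher in SIRT5F101L. Of the 6 fibroblast markers it called 5 lower and 1 higher in each plasmid group. Of all genes tested, 28.1% were called lower and 28.7% higher in WT, and 30.7% and 30.0% in SIRT5F101L. The 7 macrophage markers summed to 161 to 198, 83.4 to 95.9 and 83.0 to 107 CPM. The 4 osteoblast markers summed to 14.8 to 22.2, 1.15 to 2.05 and 1.13 to 1.88 CPM, and the 5 endothelial markers to between 2.16 and 3.57 CPM in every library. Between the plasmid groups edgeR called 1 of the 12 chondrocyte markers, Col11a2 (−0.63, adjusted p = 0.0339, named after its value was seen), and DESeq2 called 4 lower. Without SIRT5F101L replicate 1, the library described next, edgeR called 5 of the 12 lower, beside 8.57% of all genes. Of the 3 erythroid markers, Alas2 was at 0 in every library. In bulk RNA, fewer cells of a type and less RNA per cell cannot be told apart. The part of these marker shifts in the results below was not tested.

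One library stood apart before any test. Library SIRT5F101L replicate 1 had the highest level of its group for 50 of the 50 ribosomal protein genes that passed the expression filter. It was above every WT library for 33 of them, within the WT range for 17 and below every WT library for 0. Results that rest on it are given with and without it. It is set apart here by the levels of these same genes, so the results without it are not independent of that choice. Library WT replicate 1 was the lowest of its group for 45 of the 50.

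Promoters were matched by symbol in a RefSeq table (GRCm38.p6) for 43 of the 53 genes. Of these, 23 (53.5%) held a run of at least 8 bases that starts with C and goes on with C or T, on the gene's strand within 25 bases of the annotated start. The share was 15.3% of the 27025 promoters in the table, and the run stood in 5 of the 15 matched promoters (33.3%) of the other cytosolic ribosomal protein genes. The windows below, from 30 bases before the start to 20 after it, show the run in capitals where there is one. The 5 with a run and the 2 without were chosen to set the letters beside genes whose values are given below.
Rpl38 (chr11:114668550-114668599, plus strand): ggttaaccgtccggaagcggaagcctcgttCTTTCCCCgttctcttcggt
Rps27 (chr3:90213629-90213678, minus strand): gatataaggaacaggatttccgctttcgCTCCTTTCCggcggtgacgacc
Rps18 (chr17:33955646-33955695, minus strand): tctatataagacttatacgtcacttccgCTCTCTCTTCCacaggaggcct
Rps6 (chr4:86857348-86857397, minus strand): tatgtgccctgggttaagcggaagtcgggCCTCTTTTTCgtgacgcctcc
Rps12 (chr10:23787190-23787239, minus strand): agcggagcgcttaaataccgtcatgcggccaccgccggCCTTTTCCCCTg
Rps2 (chr17:24720033-24720082, plus strand): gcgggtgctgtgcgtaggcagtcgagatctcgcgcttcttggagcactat
Rps28 (chr17:33824543-33824592, minus strand): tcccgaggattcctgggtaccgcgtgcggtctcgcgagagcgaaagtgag
In Rpl38 the run begins at the annotated start itself, and in Rps27, Rps18 and Rps6 it begins within 2 bases before it. Rps12 has a run 9 bases into the transcript as annotated. Over the whole 300-base promoter, on both strands, the ETS core CCGGAAG stood in 17 of the 43 (39.5%, against 9.12% of all promoters), GGGCGG in 22 (51.2% against 35.9%), AAGATGG in 6 (14% against 6.48%) and TATAAA in 2 (4.65% against 14.2%). In the 15 promoters of the other cytosolic ribosomal protein genes the shares were 40% for CCGGAAG, 86.7% for GGGCGG, 20% for AAGATGG and 20% for TATAAA. A match is a description of letters and not of bound factors.

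In Control cells the 53 genes held 3.01%, 3.09%, 3.11% and 2.83% of all counts in replicates 1 to 4. In WT they held 2.14%, 2.53%, 2.27% and 2.63%, and in SIRT5F101L 2.68%, 1.90%, 1.96% and 1.80%. Each Control library was above each library of the plasmid groups. The means were 3.01% ± 0.127, 2.39% ± 0.226 and 2.09% ± 0.404 (SD, n = 4 each). With the 20 most abundant other genes taken out of the denominator, the means were 3.55%, 2.69% and 2.36%. With the counts of annotated near-identical copies of these genes added, they were 3.20%, 2.54% and 2.23%.

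A second measure of the libraries moved with the share. When log2 CPM was regressed on the log2 length of the transcript, over all genes that are not ribosomal protein genes, the slope was 0.53 to 0.56 in Control, 0.56 to 0.65 in WT and 0.54 to 0.70 in SIRT5F101L. A higher slope means that long transcripts hold relatively more of a library's counts. Within each of the 3 groups the order of the 4 libraries by slope was exactly the reverse of their order by ribosomal protein share. SIRT5F101L replicate 1 had a slope of 0.54, beside 0.68 to 0.70 in the other 3 libraries of its group.

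**Figure D1:**
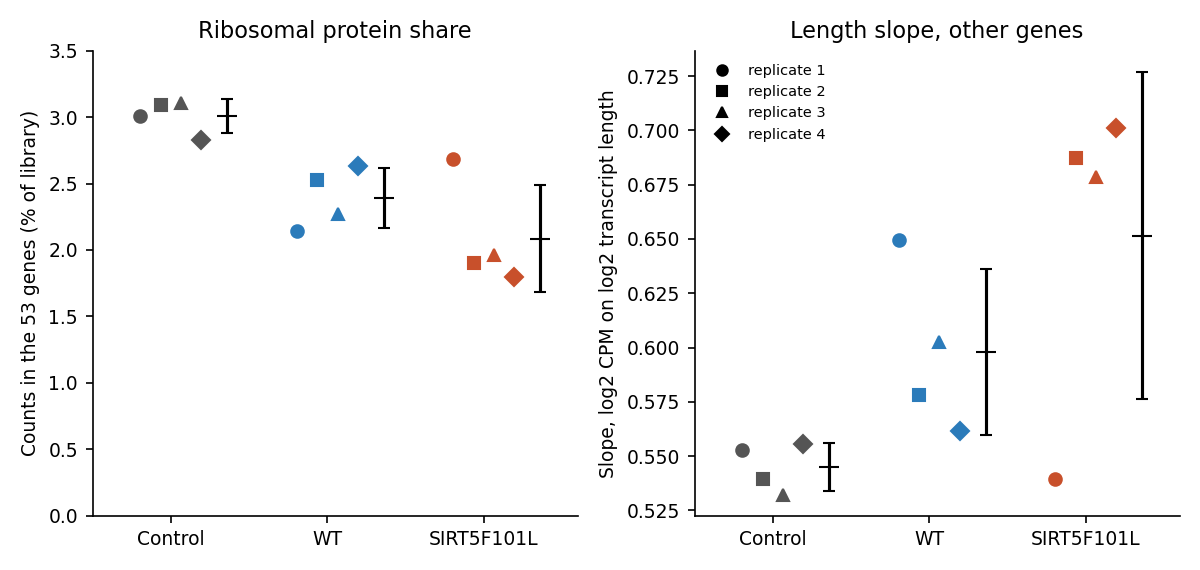
Left, the share of each library's counts in the 53 ribosomal protein genes (percent), and right, the slope of expression (log2 CPM) over log2 transcript length among all other genes, for the 4 libraries of each group (marker shape gives the replicate, bars the mean and SD). Control libraries hold 2.83% to 3.11%, above every other library, and the libraries with the lowest shares have the highest slopes in each group.

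Per kilobase of coding sequence, the genes that passed the filter ran from 24.04 (Rpl29) to 2860 CPM in Control cells, with Rps20 highest, then Rps26 at 2724 and Rps24 at 2351. Near-identical copies limit how far such levels can be read for single genes. Sequence of at least 95% identity in other genes of the GENCODE M21 annotation covered the whole coding part of 49 of the 53 genes. The number of other genes holding such a copy had a median of 6 and a maximum of 63 (Rpl21). The exceptions were Rpl8 (14.5% covered), Rps3 (78.2%), Rpl22 (98.2%) and Rpl32 (99.8%). How the authors' counting treated reads with several matches is not given in the sources used here, so single levels of the other 49 are uncertain.

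The 3 genes that did not pass the filter were at or near 0. Rpl35 and Rps10, a large and a small subunit protein, had 0 counts in every library, and Rpl24, a large subunit protein, had 1 count in SIRT5F101L replicate 4 and 0 elsewhere. A count of 0 allows up to 3 counts, or 0.124 to 0.199 CPM, per library (counting error only). Low levels were also seen for Rpl34 (11.2 CPM ± 1.06 in Control, SD, n = 4), Rpl29 (11.5 ± 1.48) and Rpl13a (29.0 ± 4.11). Exons of Rpl35 overlapped other genes over 66.2% of their length, those of Rpl24 over 47.0%, Rpl13a over 35.4% and Rps10 over 28.7%, whereas those of Rpl29 and Rpl34 had no overlap. Of the 26 other ribosomal protein genes, 7 also failed the filter, among them the X-linked Rpl10, Rpl36a, Rpl39 and Rps4x.

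Against Control, ribosomal protein mRNAs were lower in WT cells. Of the 50 genes tested, 43 fell, 0 rose and 7 did not pass the test (edgeR, adjusted p under 0.05). Over all 14253 genes tested, 28.1% were called lower, 28.7% higher and 56.8% in either direction. The median log2 fold change was −0.40 for the 50 genes (range −0.85 to −0.11) and −0.01 for all genes. For 41 of the 50 each WT library lay below each Control library, beside 26.5% of all genes. DESeq2 called 30 of the 50 lower (20.6% of all genes), and edgeR with a robust prior called 29 (27.8%). Among the WT calls lost in both of these tests were those of Rpl11, Rpl13, Rpl38, Rps19, Rps23 and Rps28. Without WT replicate 1, 30 of the 50 fell, with a median of −0.34, beside 25.6% of all genes called lower. Among the genes named below, Rpl11 (adjusted p = 0.102), Rpl13 (0.0846), Rps19 (0.0568), Rps23 (0.0856) and Rps28 (0.0578) then missed the threshold in WT. The WT calls of Rpl11, Rpl13 and Rps23 were also lost without Control replicate 1, Control replicate 3 or WT replicate 3, and that of Rps19 without either of the last pair (adjusted p = 0.0531 to 0.0793 over these).

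In SIRT5F101L cells the shift was seen in nearly every gene. Here 48 fell, 0 rose and 2, Rpl29 and Rpl34, did not pass the test, with 30.7% of all genes called lower, 30.0% higher and 60.7% in either direction. The median log2 fold change was −0.61 (range −1.23 to −0.23), beside −0.02 for all genes. For 40 of the 50 the groups did not overlap (25.7% of all genes were lower without overlap). Without SIRT5F101L replicate 1, 49 fell and 0 rose, the median was −0.77 and all 50 lay below every Control library (31.7% of all genes). Of all genes, 32.1% were then called lower, 31.0% higher and 63.2% in either direction. Both comparisons use the same 4 Control libraries.

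The size of both shifts changed when the length slope entered the fit. With each library's slope over all genes as a covariate, the medians were −0.18 for WT and −0.22 for SIRT5F101L against Control, and 31 and 33 genes were called lower, beside 27.9% and 23.3% of all genes. Of the genes named below, Rpl11, Rpl13, Rps2 and Rps23 then lost the call in WT (adjusted p = 0.0535 to 0.136), and Rpl6, Rpl8, Rpl13, Rps25 and Rps29 in SIRT5F101L (adjusted p = 0.0784 to 0.995). With the fitted length trend of each library as an offset instead, the medians were −0.36 and −0.52, and 45 and 48 genes were called lower, beside 31.2% and 32.9% of all genes. Between SIRT5F101L and WT the median was −0.21 without a length term, −0.03 with the covariate and −0.145 with the offset.

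**Figure D2:**
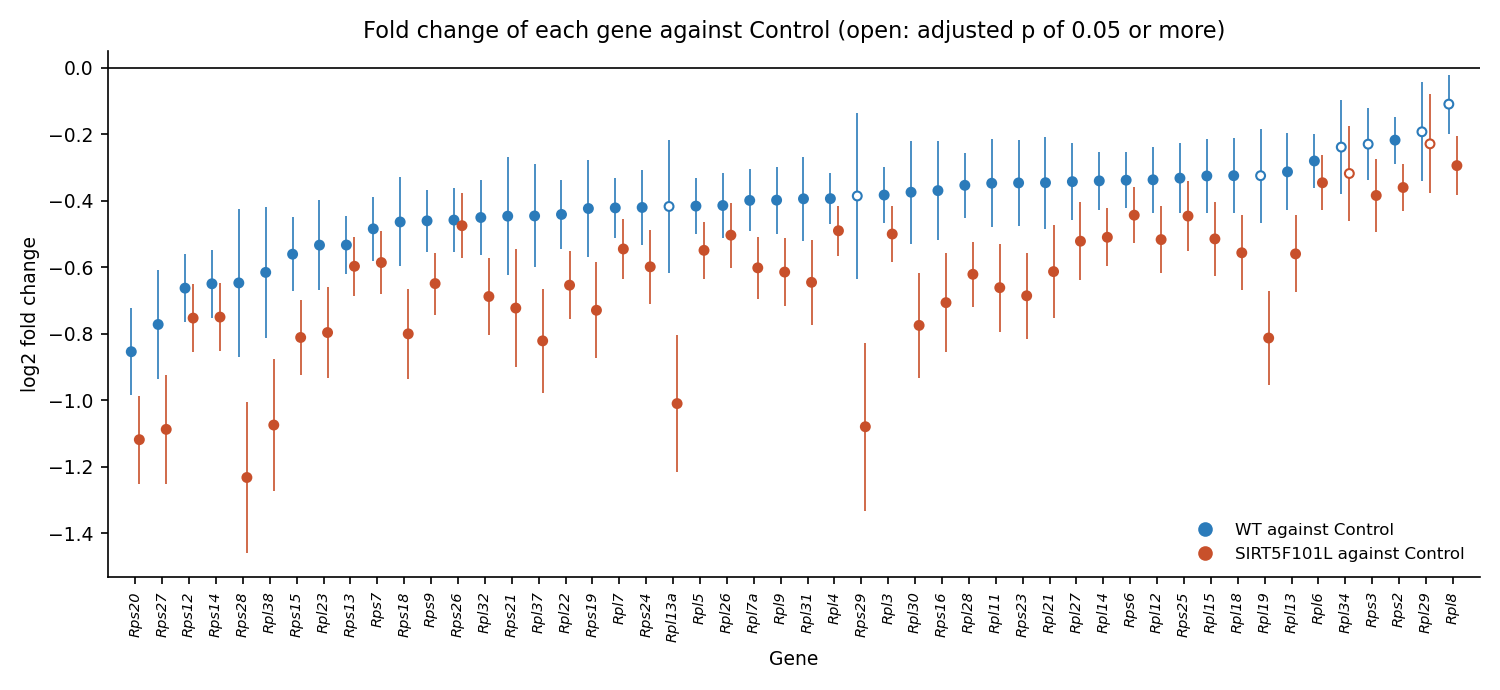
Log2 fold change against Control of the 50 tested genes (points, with bars of 1 standard error from edgeR) for WT and SIRT5F101L, ordered by the WT value. All 100 points lie below 0, and filled points passed an adjusted p of 0.05: 43 in WT and 48 in SIRT5F101L.

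Against Control, the small subunit genes had the lower medians. All 21 small subunit genes tested fell in SIRT5F101L (median −0.71) and 19 fell in WT (median −0.46). Of the 29 large subunit genes tested, 27 fell in SIRT5F101L (median −0.56) and 24 in WT (median −0.37). Between SIRT5F101L and WT the medians were −0.19 for the small and −0.21 for the large subunit, or −0.35 and −0.36 without SIRT5F101L replicate 1. The difference between the subunits was not tested.

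Rps20, a protein of the small subunit's head, had the lowest fold change in WT. Its level was 1028, 988, 1088 and 979 CPM in Control replicates 1 to 4, 462, 593, 550 and 655 in WT, and 667, 404, 417 and 393 in SIRT5F101L. Every plasmid library lay far below every Control library. It fell by 0.85 in WT (SE 0.13, adjusted p = 1.42e-05) and by 1.12 in SIRT5F101L (SE 0.13, adjusted p = 4.3e-07) on the log2 scale, a loss of 44.7% and 53.9%.

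Rps28, a small protein near the mRNA exit of the small subunit, had the lowest value of all in SIRT5F101L. It stood at 514, 439, 521 and 447 CPM in Control, 246, 355, 301 and 325 in WT, and 375, 123, 169 and 150 in SIRT5F101L. Replicate 1 of the mutant group lay above all WT libraries and the other 3 lay below them all. It fell by 0.65 in WT (SE 0.22, adjusted p = 0.0182) and by 1.23 in SIRT5F101L (SE 0.23, adjusted p = 9.39e-05), or by 1.70 without replicate 1.

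Rps27, a zinc-binding small subunit protein, was at 476, 470, 492 and 431 CPM in Control, 222, 313, 247 and 312 in WT, and 343, 182, 185 and 169 in SIRT5F101L. Neither plasmid group overlapped Control, and replicate 1 of the mutant group lay above all WT libraries while the other 3 lay below them. It fell by 0.77 in WT (adjusted p = 0.000446) and by 1.09 in SIRT5F101L (adjusted p = 1.02e-05). Its paralog Rps27l, a target of p53, fell by 0.47 and 0.71 (adjusted p = 0.00373 and 7.91e-05).

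Rps29, another zinc-binding small subunit protein, spread widely. Its level was 387, 304, 418 and 334 CPM in Control, 206, 325, 273 and 301 in WT, and 325, 91.7, 140 and 126 in SIRT5F101L. WT overlapped Control, and its log2 fold change of −0.39 (SE 0.25) did not pass the test (adjusted p = 0.197). In WT it passed in a fit of the 8 libraries compared (adjusted p = 0.00106), with the length offset (0.0404) and with no expression filter (1.7e-07). With the slope covariate its sign turned (0.0855). In SIRT5F101L it fell by 1.08 (SE 0.25, adjusted p = 0.00101), with replicate 1 inside the Control range.

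Rps12 fell by 0.66 in WT and 0.75 in SIRT5F101L, and Rps14, a protein of the small subunit's platform, fell by 0.65 and 0.75. Rps14 stood at 857, 870, 882 and 803 CPM in Control, 489, 586, 481 and 619 in WT, and 651, 465, 470 and 444 in SIRT5F101L. Neither plasmid group overlapped Control. For both genes the SIRT5F101L and WT means were close, at 529 and 563 CPM for Rps12 and 507 and 544 CPM for Rps14.

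Rps19, the protein most often mutated in Diamond-Blackfan anaemia, fell by 0.42 in WT and 0.73 in SIRT5F101L. Rps23, which sits at the decoding centre, fell by 0.35 and 0.69. Rps18, whose window with a run is printed above, fell by 0.46 and 0.80. Rps25, which helps some viral and cellular mRNAs start translation internally, fell by 0.33 and 0.45, with both plasmid groups overlapping Control.

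Rps6, the classical substrate of the S6 kinases downstream of mTOR, was at 878, 875, 848 and 775 CPM in Control, 607, 689, 633 and 741 in WT, and 741, 619, 564 and 559 in SIRT5F101L. Both plasmid groups lay below Control, by 0.34 (adjusted p = 0.00185) and 0.44 (adjusted p = 0.000131) on the log2 scale. Rps2 and Rps3 of the mRNA entry had smaller values. Rps2 fell by 0.22 and 0.36, and Rps3 had −0.23 (adjusted p = 0.0784) in WT, or −0.31 (adjusted p = 0.0295) without WT replicate 4, and fell by 0.38 in SIRT5F101L. In WT, Rps3 also passed in a fit of the 8 libraries compared (adjusted p = 0.00761), with no expression filter (0.00261) and with upper-quartile scaling (0.0304).

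**Figure D3:**
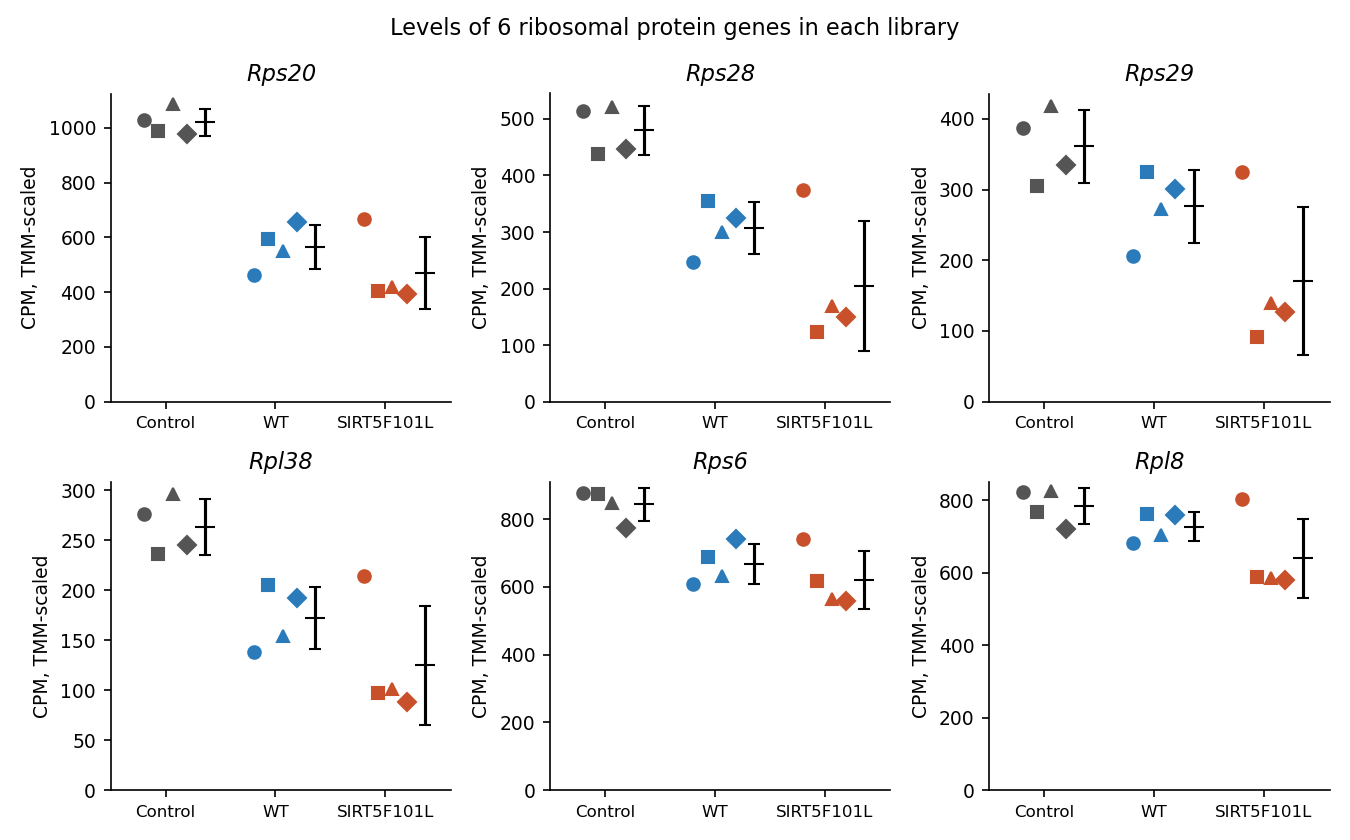
CPM in each library (points, marker shape by replicate; bars the mean and SD of 4) for Rps20, Rps28, Rps29, Rpl38, Rps6 and Rpl8, on axes that start at 0. SIRT5F101L replicate 1 (circle) is the highest point of its group in all 6 panels, and Rps20 shows the clearest gap to Control.

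Among large subunit genes, Rpl38 had the lowest values. It stood at 276, 236, 297 and 245 CPM in Control, 138, 205, 154 and 192 in WT, and 214, 96.9, 100.98 and 88.7 in SIRT5F101L. No plasmid library reached the Control range, and 3 mutant libraries lay below all WT libraries. It fell by 0.62 in WT (SE 0.20, adjusted p = 0.012) and by 1.07 in SIRT5F101L (SE 0.20, adjusted p = 0.000108).

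Rpl5 and Rpl11 form, with 5S rRNA, the particle that binds Mdm2 when ribosome assembly is disturbed. Rpl5 was at 676, 690, 699 and 637 CPM in Control, 455, 504, 479 and 586 in WT, and 552, 434, 443 and 417 in SIRT5F101L. Rpl11 was at 577, 545, 609 and 549 CPM in Control, 381, 473, 421 and 518 in WT, and 517, 296, 322 and 308 in SIRT5F101L. For both genes neither plasmid group overlapped Control. Rpl5 fell by 0.42 and 0.55, and Rpl11 by 0.35 (adjusted p = 0.0306) and 0.66 (adjusted p = 0.000236).

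Mdm2 itself, the ubiquitin ligase of p53, rose by 0.50 in WT and 0.65 in SIRT5F101L, while Cdkn1a, a p53 target, fell by 0.53 and 0.61.

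Rpl3, which lines the peptidyl transferase centre, fell by 0.38 and 0.50. Rpl13 fell by 0.31 and 0.56. Rpl22, an RNA-binding protein at the ribosome's surface, fell by 0.44 and 0.65, and its paralog Rpl22l1, which Rpl22 is known to repress, fell by 0.75 and 1.31. Rpl19 had −0.32 in WT (adjusted p = 0.0568) and fell by 0.81 in SIRT5F101L.

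Rpl13a, released from the ribosome in interferon-treated myeloid cells, had few reads and an uncertain level. It was at 32.3, 27.4, 32.5 and 24.01 CPM in Control, 18.3, 18.3, 24.5 and 25.7 in WT, and 23.6, 8.57, 13.7 and 11.4 in SIRT5F101L. WT overlapped Control and its −0.42 did not pass the test (adjusted p = 0.0819), whereas it fell by 1.01 in SIRT5F101L (adjusted p = 0.000269). In WT it passed in a fit of the 8 libraries compared (adjusted p = 0.00214) and with no expression filter (0.000165). Rpl29, at 7.43 to 13.7 CPM in all libraries, had −0.19 and −0.23 and passed neither test. Rpl34 had −0.24 and −0.32 and passed neither. In SIRT5F101L it passed without SIRT5F101L replicate 1 (−0.48, adjusted p = 0.00178) and without Control replicate 1 (−0.38, adjusted p = 0.0408). It also passed there with upper-quartile scaling (adjusted p = 0.0317) and with no expression filter (0.0415), and its sign turned with the slope covariate (0.0736).

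Rpl8, the gene whose coding part was least covered by near-identical copies, was at 824, 769, 827 and 721 CPM in Control, 682, 764, 705 and 761 in WT, and 805, 590, 585 and 581 in SIRT5F101L. WT overlapped Control, and replicate 1 of the mutant group lay inside the Control range. Its −0.11 in WT (SE 0.09, adjusted p = 0.305) was the smallest value of the 50, and it fell by 0.29 in SIRT5F101L (adjusted p = 0.00736).

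**Figure D4:**
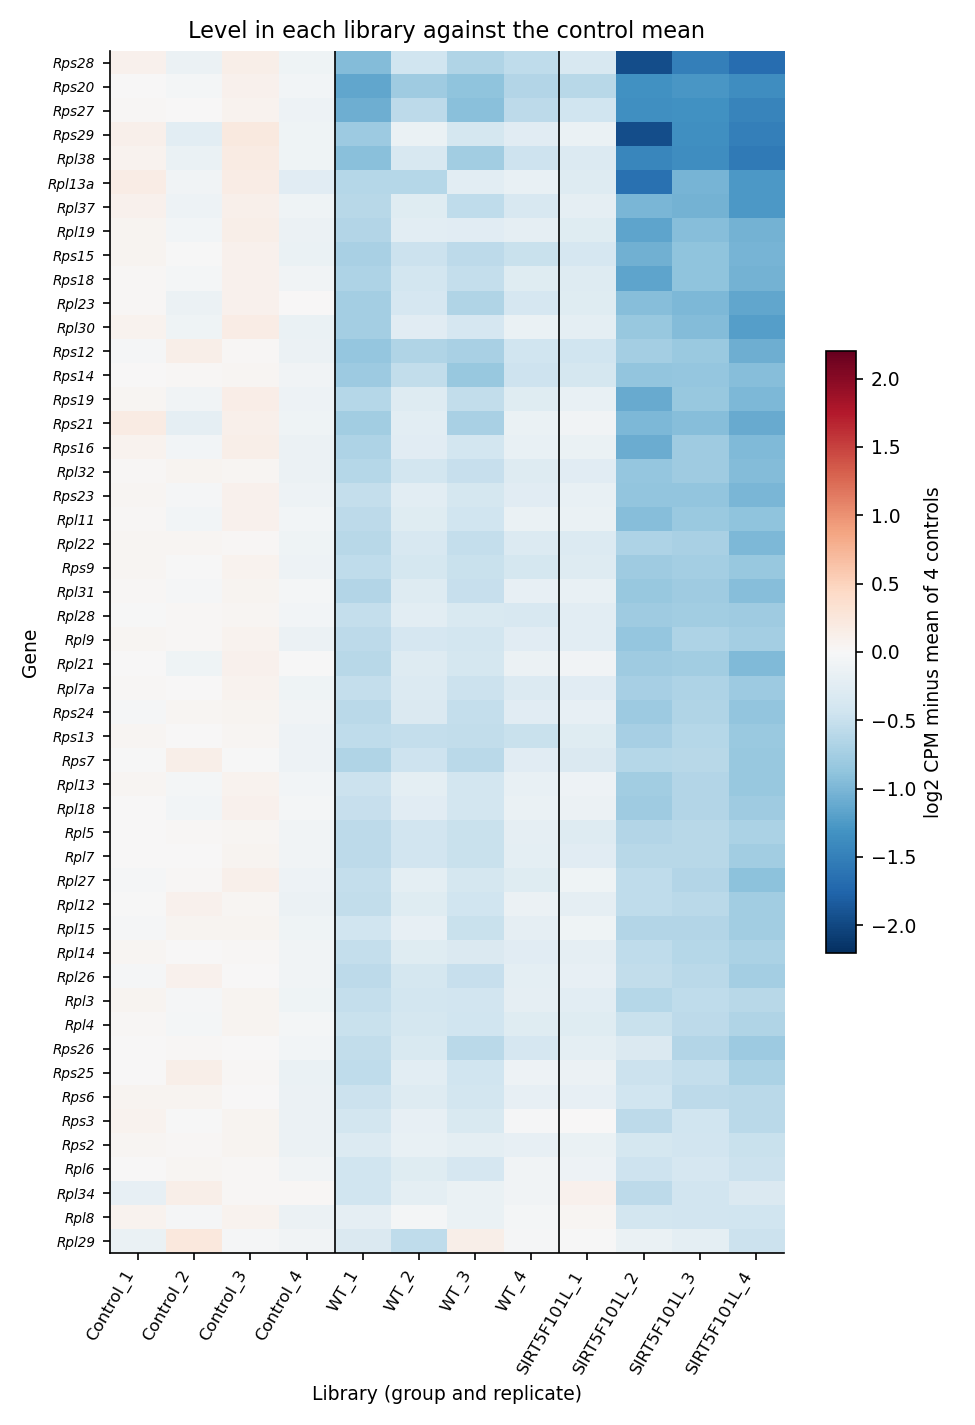
Log2 CPM minus the mean of the 4 Control libraries for the 50 tested genes (rows, ordered by the SIRT5F101L fold change) in the 12 libraries (columns). SIRT5F101L replicates 2 to 4 are the darkest columns, and SIRT5F101L replicate 1 is paler than WT replicate 1.

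The spread between libraries differed by group. The median SD of log2(CPM + 1) over the 50 genes was 0.084 in Control, 0.163 in WT and 0.293 in SIRT5F101L, beside 0.116, 0.117 and 0.152 for all tested genes. Without replicate 1 the SIRT5F101L value was 0.096, beside 0.103 for all genes. Without replicate 1 the WT value was 0.131, beside 0.102. The median of the genes' log2 deviations from the Control mean was −0.58, −0.30, −0.46 and −0.25 in WT replicates 1 to 4, and −0.21, −0.78, −0.70 and −0.85 in SIRT5F101L. Replicate 1 was the lowest library of the WT group and the highest of the SIRT5F101L group by this measure.

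Between SIRT5F101L and WT, edgeR called 0 of the 50 genes. Of all genes it called 0.0140% lower, 0.0281% higher and 0.0421% in either direction. An unadjusted p under 0.05 was reached by 17, beside 11.9% of all genes, and DESeq2 also called 0. The median log2 fold change was −0.21 (range −0.69 to −0.02), or −0.03 with the slope covariate, and the median for all genes was 0. No gene was without overlap (2.03% of all genes were lower without overlap). Without SIRT5F101L replicate 1, 43 fell and 0 rose (8.57% of all genes lower, 6.66% higher, 15.2% in either direction), with a median of −0.36. Then 40 of the 50 had no overlap (13.0% of all genes). With no expression filter, 23 of the 50 fell with all libraries kept, beside 0.921% of the 25722 genes then tested. Without replicate 1 of both plasmid groups 47 fell, beside 10.8% of all genes, and with the length offset and SIRT5F101L replicate 1 left out 31 fell, beside 5.83%. Both of these settings were added after the data were seen. With any 1 of the other 11 libraries left out, 0 were called under the default filter.

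The 5 lowest values between the plasmid groups were those of Rps29 (−0.69 with all libraries, −1.20 without replicate 1), Rpl13a (−0.59 and −0.93), Rps28 (−0.58 and −1.05), Rpl19 (−0.49 and −0.72) and Rpl38 (−0.46 and −0.85). The 5 closest to 0 were those of Rps26 (−0.02 and −0.11), Rpl29 (−0.04 and −0.11), Rps13 (−0.06 and −0.19), Rpl6 (−0.07 and −0.15) and Rpl34 (−0.08 and −0.24). Of these 5, Rps13 alone passed the test without replicate 1 (adjusted p = 0.0225). Against Control, Rps13 fell by 0.53 in WT and 0.60 in SIRT5F101L, and Rpl6 fell by 0.28 and 0.35. Rpl3, Rpl5, Rpl11, Rpl13, Rpl22, Rps6, Rps14, Rps19, Rps23, Rps25 and Rps27 lay between −0.34 (Rps23) and −0.10 (Rps14) from WT to SIRT5F101L, and between −0.61 (Rps27) and −0.20 (Rps6) without replicate 1, where each of them passed the test. Rps26 stood at 647.6, 740.9, 620.1 and 727.7 CPM in WT and at 807, 755, 603 and 540.2 in SIRT5F101L, so that replicates 1 and 2 of the mutant group were above all WT libraries.

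Shorter genes had the lower fold changes. Across the 50 genes, which share libraries and so are not independent, Pearson's r between log2 coding length and log2 fold change was 0.459 in WT, 0.628 in SIRT5F101L and 0.512 between the plasmid groups (Spearman's rho 0.459, 0.555 and 0.385). The 26 genes with coding parts up to 453 nt had medians of −0.44, −0.71 and −0.26, and the 24 longer ones −0.34, −0.55 and −0.18. In SIRT5F101L, Rps29 (168 nt), Rps28 (207 nt), Rpl38 (210 nt) and Rps27 (252 nt) held 4 of the 5 lowest values, and the other was that of Rps20 (357 nt). The direction is that of the length slope given above, and the part of the slope in it was not tested.

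**Figure D5:**
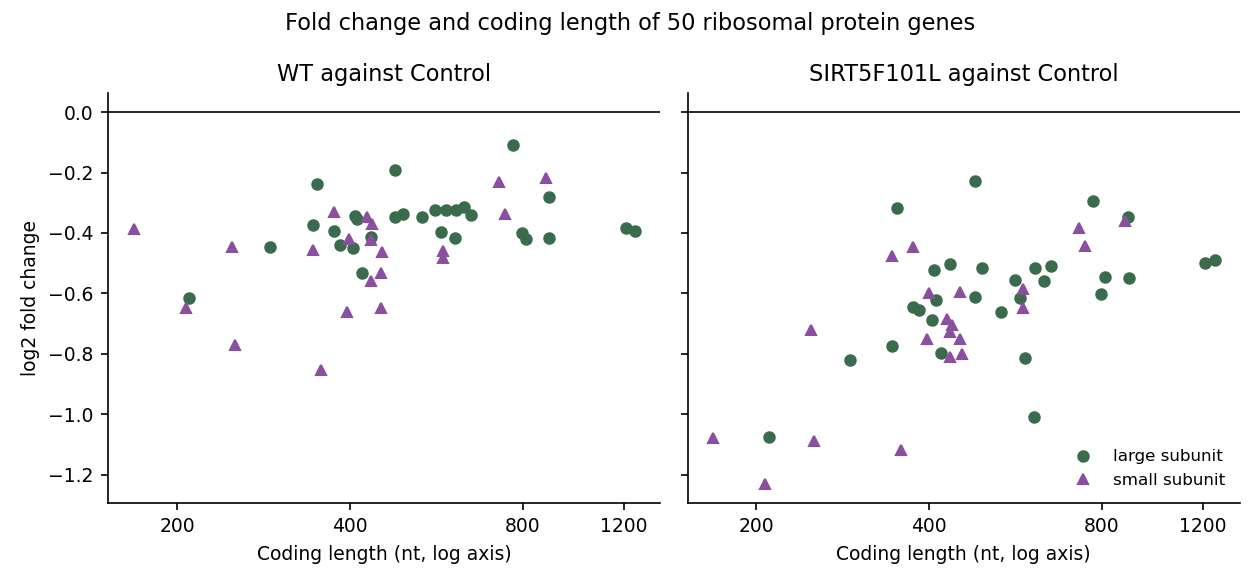
Log2 fold change of the 50 genes against coding length (nt, log axis) in WT and SIRT5F101L, each against Control, with large and small subunit genes marked. Points rise from left to right in both panels (r = 0.459 and 0.628), and all lie below 0.

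The tested genes were also split by the run of pyrimidines described above. The 21 tested genes with a run in the promoter window had a median log2 fold change of −0.39 in WT and −0.60 in SIRT5F101L, and the 19 without had −0.41 and −0.65. Rps28, without a run in the window printed above, had the lowest value in SIRT5F101L, and Rps2, also without, one of the highest. No test was made of this difference.

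The 26 other ribosomal protein genes, of which 19 were tested, moved in the same direction. In WT 12 fell and 0 rose (median −0.39), and in SIRT5F101L 18 fell and 0 rose (median −0.60). For this list and those that follow, the shares over all genes were 28.1% lower and 28.7% higher in WT. In SIRT5F101L they were 30.7% and 30.0%. Rpl17, at the exit tunnel, fell by 0.58 and 0.71, and Rpl10a by 0.52 in WT. The stalk protein Rplp0 had −0.15 (adjusted p = 0.0838) and −0.16 (adjusted p = 0.0575) and passed neither test, but without SIRT5F101L replicate 1 the latter was −0.23 and passed (adjusted p = 0.00209). Between the plasmid groups 0 of the 19 were called by edgeR with its default filter (6 with an unadjusted p under 0.05) and 0 by DESeq2. Without SIRT5F101L replicate 1, 17 fell, beside 8.57% of all genes. With no expression filter and all libraries kept, edgeR called at least Rps3a1 (−0.25, adjusted p = 0.0289).

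Translation factors and a few other genes whose mRNAs are known to carry a TOP motif were mostly lower. Of 16, 11 fell and 2 rose in WT (median −0.40), and 13 fell and 2 rose in SIRT5F101L (median −0.45). Eef1a1, which brings tRNA to the ribosome, fell by 0.31 and 0.30, and Eef2, which moves the ribosome along, fell by 0.44 and 0.47. Eif3f, a subunit of initiation factor 3, fell by 0.50 and 0.60. The poly(A)-binding protein gene Pabpc1 rose by 0.46 and 0.59, and the histone chaperone gene Nap1l1 rose by 0.87 and 0.97.

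Genes for RNA polymerase I and ribosome assembly went mostly the other way. Of 30, 20 rose and 2 fell in WT (median 0.26), and 16 rose and 3 fell in SIRT5F101L (median 0.21). Polr1a, the largest polymerase I subunit, was at 38.9 to 45.0 CPM in Control, 86.2 to 93.3 in WT and 82.6 to 97.5 in SIRT5F101L. Both plasmid groups lay far above Control, and it rose by 1.13 and 1.17. Noc2l, a nucleolar protein, rose by 0.62 and 0.56. Ubtf, the polymerase I transcription factor, fell by 0.51 and 0.58, and Npm1, the nucleolar chaperone nucleophosmin, fell by 0.28 and 0.40.

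Of 21 tested genes that control ribosomal protein synthesis, 10 rose and 5 fell in WT, and 9 rose and 5 fell in SIRT5F101L. Mtor rose by 0.72 and 0.77, Larp1 by 0.44 and 0.41, and Myc, a transcription factor that drives ribosome production, by 0.90 and 0.83. Sesn2, an inhibitor of mTOR complex 1, stood at 86.0 to 91.9 CPM in Control, 38.7 to 48.5 in WT and 42.8 to 45.9 in SIRT5F101L, and fell in both groups (adjusted p = 1.61e-10 and 1.58e-10). In contrast to the cytosolic genes, the 72 tested mitochondrial ribosomal protein genes were split in WT, where 9 rose and 14 fell (median −0.09). In SIRT5F101L 9 rose and 37 fell (median −0.28), with Mrps16 at −0.92 and Mrpl24 at −0.62. Of all genes, 28.7% rose and 28.1% fell in WT, and 30.0% and 30.7% in SIRT5F101L. Between the plasmid groups 0 genes of these 4 lists were called by DESeq2, or by edgeR with its default filter, with all libraries kept. An unadjusted p under 0.05 in edgeR was reached by 3, 5, 4 and 20 of them, in the order given. With no expression filter, edgeR called at least Mrps5 of the mitochondrial list (−0.33, adjusted p = 0.042). Without SIRT5F101L replicate 1, edgeR called 6 of the 16 TOP genes lower and 0 higher, 9 of the 30 polymerase I and assembly genes lower and 0 higher, and 3 of the 21 control genes lower and 3 higher. Of the 72 mitochondrial ribosomal protein genes it then called 36 lower and 1 higher, and of all genes 8.57% lower and 6.66% higher.

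Of 8 genes for ribosomal protein paralogs, 4 were tested. In WT 2 fell and 0 rose (Rpl22l1 and Rps27l), and in SIRT5F101L 3 fell and 0 rose. Rpl39l was at 7.20, 8.46, 9.74 and 7.10 CPM in Control, 7.05, 10.1, 8.37 and 7.76 in WT, and 6.84, 3.83, 4.65 and 4.87 in SIRT5F101L. Every mutant library was below every other library, and it fell by 0.68 against Control (adjusted p = 0.00167). Against WT its log2 fold change was −0.71 (edgeR adjusted p = 0.18), and DESeq2 called 1 of the 4 paralogs lower in that comparison. Without SIRT5F101L replicate 1 it was −0.89 (edgeR adjusted p = 0.000333), and edgeR called 4 of the 4 paralogs lower, beside 8.57% of all genes.

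The genes with the lowest p-values in each of these lists of ribosome-related genes were also compared between the plasmid groups. None passed the test in edgeR with its default filter and all libraries kept. With no expression filter, Rpl39l, Rpl22l1, Rps3a1 and Mrps5 passed it (adjusted p = 0.000716, 0.00296, 0.0289 and 0.042), as did Rps27l (0.0457). The values below are those with the default filter. The poly(A)-binding protein gene Pabpc1 had 0.13 and the p53 ligase gene Mdm2 had 0.14, with every mutant library above every WT library for both. Mrpl1, of the mitochondrial large subunit, had 0.295 and likewise did not overlap. Rpl23a (−0.37), a large subunit protein, Rrp9 (−0.29), which binds U3 RNA, and Sdad1 (−0.24) had every mutant library below every WT library. Rps3a1, a small subunit protein, had −0.25, and Akt1s1, an inhibitory partner of mTOR complex 1, had −0.19. Mrps5, of the mitochondrial small subunit, had −0.32, and the RNA-binding protein gene Hnrnpa1 had −0.18. Without SIRT5F101L replicate 1 the values of Rps3a1 and Akt1s1 were −0.40 and −0.28, and both passed the test. Mdm2, at 0.17, then passed as well (adjusted p = 0.0253), and Pabpc1, at 0.16, did not (adjusted p = 0.0504). Rpl23a, Rrp9, Sdad1, Mrpl1, Mrps5 and Hnrnpa1 passed it too (adjusted p = 0.0258, 0.00439, 0.0449, 0.0199, 0.00114 and 0.000659). Rpl22l1 had −0.57 with all libraries and −0.83 without replicate 1, and Rps27l had −0.24 and −0.44. Myc (−0.06 and −0.05), Eef2 (−0.03 and −0.04) and Eef1a1 (0.01 and −0.02) passed the test in neither fit.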

How the data were processed

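Poly(A) mRNA of 12 libraries was sequenced as 150 bp paired-end reads, per the labels' protocols. As deposited by the authors, each file lists Ensembl gene IDs with a raw count, always a whole number. The submitters' processing notes name FastQC 0.11.9, HISAT2 2.2.1, HTSeq 2.0.2, DESeq2 1.38.3 and build GRCm39 (mm39). The strand setting, the annotation and the handling of reads with several matches are not given in the sources used here.

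Counts were scaled by TMM, filtered by group with edgeR's default filter and fitted with edgeR 4.0.16 (R 4.3.3) by a quasi-likelihood model of all 12 libraries with 1 mean per group. Tests were 2-sided, with Benjamini-Hochberg adjustment over 14253 genes and a threshold of 0.05. All adjusted p-values in the text come from this tool unless DESeq2 (1.42.0) is named. Errors are the SD over 4 libraries or the standard error (SE) of a log2 fold change. Log2 CPM used a prior count of 2 in slopes and a pseudocount of 1 in deviations and spreads.

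Symbols came from a supplied table of Ensembl names. Transcript and coding lengths, overlap of exons between genes (bedtools 2.31.1) and near-identical sequence (blastn 2.17.0, at least 95% identity over at least 50 nt) came from GENCODE M21 without regard to strand. That annotation is on another build, so no gene coordinates are given; promoter coordinates are those of RefSeq on GRCm38.p6.

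The members and lists were chosen with earlier results of these data known. Genes were named by a rule: 17 members in every comparison, the 5 highest and 5 lowest tested members, Rpl22l1, Rps27l, Myc, Mdm2, Eef1a1, Eef2 and the 2 lowest p-values of each other ribosome-related list; other members appear by value as members. The remaining names (Mtor, Larp1, Cdkn1a, Pabpc1, Rplp0 and Npm1 where outside the rule) were chosen after their values were seen. The test script was checked on simulated counts. Alternatives were other scalings, filters, a robust prior, DESeq2, fits of the 8 libraries compared, length corrections and each library left out.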

Additional observations from a re-analysis of the deposited data

Results flagged for a closer look

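In 28 measures (named genes, shares and slopes) the highest or lowest of the 4 libraries of each group was compared with the gap to its neighbour. Of the 84 groups, 11 held a library that stood far from the other 3, where chance alone flags about 1 in 20 groups, or 4.2 here. The measures are not independent of each other.

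SIRT5F101L replicate 1 was the library in 9 of the 11. Its Rps20 level was 666.8 CPM, beside 393.4 to 417.4 in the other 3 libraries of the group. Rps27 was at 342.7 CPM (others 169.4 to 185.4), Rpl38 at 214.1 (88.68 to 100.98) and Rpl11 at 516.8 (295.8 to 321.7). Rps23 was at 612.9 CPM (338.4 to 376.2), Rps14 at 650.9 (443.5 to 470.2), Rpl3 at 835.5 (637.5 to 662.1) and Rpl8 at 804.6 (581.5 to 589.6). Its slope of expression over transcript length, all genes included, was 0.4995, beside 0.641 to 0.6643.

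Rpl22 in Control replicate 4 was low at 298.5 CPM, beside 327.6 to 328.4 in the other 3. Rpl19 in WT replicate 1 was low at 210.3 CPM, beside 276.6 to 286.5.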

How the results depend on the processing

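No paired analysis was possible because the labels give no replicate numbers that groups share. Against Control, no gene of the 50 was called higher in any alternative, and the number called lower stayed within 1.5 times the value reported: 29 (robust prior) to 47 for WT and 33 (length slope as covariate) to 49 for SIRT5F101L. Leaving out 1 library at a time gave 30 to 44 and 48 to 49 (47 of WT where SIRT5F101L replicate 1 was left out of the shared fit), with medians of −0.45 to −0.34 and −0.77 to −0.55. Against Control, only the slope covariate moved the medians beyond 1 SD, to −0.18 and −0.22. Between SIRT5F101L and WT, 0 became 23 with no filter, beside 0.921% of all genes called lower. Leaving out 1 library gave 0 to 43 with medians of −0.36 to −0.14, and 8.57% of all genes were called lower where 43 were. The median between the plasmid groups was −0.03 with the slope covariate and −0.145 with the offset. After the data were seen, 2 alternatives were added. Without replicate 1 of both plasmid groups 47 were called lower, beside 10.8% of all genes. With the length offset and SIRT5F101L replicate 1 left out 31 were, beside 5.83%. The cause was not tested. Signs turned in values that did not pass in the main fit of all libraries, although some passed in other fits. Rpl3, Rpl5, Rps6, Rps13, Rps14 and Rps25 passed between the plasmid groups without SIRT5F101L replicate 1. Rps29 passed in WT with the offset (adjusted p = 0.0404), with no filter (1.7e-07) and in the fit of the 8 libraries compared (0.00106). Rpl34 passed in SIRT5F101L with no filter (0.0415) and with upper-quartile scaling (0.0317). With the slope covariate the values that turned were Rps29 (0.0855) and Rpl8 (0.0439) in WT, Rpl34 (0.0736) in SIRT5F101L and, between the plasmid groups, Rpl3 (0.0196), Rpl5 (0.0079), Rpl29 (0.0667), Rps6 (0.0256), Rps14 (0.0782), Rps25 (0.0677), Rpl34 (0.109), Rpl6 (0.0683), Rps13 (0.0681) and Rps26 (0.107). Between the plasmid groups they were also, with the offset, Rpl29 (0.0518), Rpl34 (0.0148), Rps13 (0.0321) and Rps26 (0.0803), and with SIRT5F101L replicate 1 left out as well, Rpl29 (0.0376), Rps26 (0.0532) and Myc (0.0391). With 1 library or both replicates 1 left out, the ranges were −0.167 to 0.086 for Rpl29, −0.323 to 0.0074 for Rpl34, −0.199 to 0.0095 for Rpl6, −0.205 to 0.004 for Rps13, −0.112 to 0.0755 for Rps26 and −0.0313 to 0.039 for Eef1a1. At this depth Rpl24, Rpl35 and Rps10 had at most 1 count in any library, and no fold change is given for them.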
